A study of Mus musculus with 6 samples.

Results

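Among the B cells of the mouse peritoneum, a small set carried transcripts of Vpreb3, and it is this set of Vpreb3 B cells that is described here. A barcode was taken as a B cell when it had at least 500 genes, at most 10% mitochondrial UMIs (unique molecular identifiers, 1 per counted transcript), at least 4 UMIs of Cd79a and Cd79b together, and none of the macrophage genes Csf1r and Adgre1 or of the T cell genes Cd3d and Cd3e. A Vpreb3 B cell then had at least 1 UMI of Vpreb3, no UMI of Bhlhe41, Zbtb32 or Cd5, which mark B-1 cells, and at most 1 UMI of Egr3 and Egr4, which are induced through the B cell receptor. Of 7760 barcodes 7665 were kept, 2786 of them were B cells, and 161 met the whole rule. The cells were thus selected on measured values, the UMIs of these genes, which are used here only to describe them. These 161 cells made up 5.78% of B cells (95% exact binomial interval 4.94–6.71%) and 2.10% of kept cells. A further 39 B cells carried Vpreb3 but were left out, 34 for a B-1 gene and 6 for Egr3 and Egr4, with 1 cell in both counts.

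The cells came from resident peritoneal lavage of adult C57BL/6 mice, either MerTK +/+ or MerTK -/-, the latter from a line titled MerKD in which MerTK, a receptor for apoptotic cells, is inactivated. Lavage cells were plated for 1 hour and washed to remove those that did not adhere, and then kept as controls or given UV-killed apoptotic Jurkat cells, a human T cell line, for 2 h or 6 h. All 6 samples are labelled as peritoneal macrophages, so the B cells are those that stayed through the wash. Each genotype and condition gave 1 library pooled from 3 mice, prepared with a 5′ droplet kit. The 6 library numbers in the barcodes were not matched to genotypes or times, so no comparison of genotypes or of exposure is made, and every value is given over all libraries or by library number. Sets of cells are compared within each library, and because the cells were selected on measured values no test is given over the libraries. Intervals cover counting error only.

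B cells of the peritoneal cavity are of several kinds. B-1 cells are self-renewing, secrete natural IgM and carry little IgD, whereas B-2 cells arrive from the follicles of the spleen and lymph nodes, circulate, and carry IgD and CD23. Vpreb3 encodes a small immunoglobulin-like protein of the endoplasmic reticulum that binds newly made immunoglobulin chains, and it is best known from B cell precursors of the bone marrow. CD23, the low-affinity IgE receptor, is encoded by Fcer2a, and the ligand for the T cell receptor ICOS by Icosl. Chchd10 encodes a small protein of the mitochondrial intermembrane space. Ighd, Fcer2a, Icosl and Chchd10 were put forward with the rule as markers of these cells from earlier results of the same table, so their levels are a description and support nothing beyond it.

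Vpreb3 and Chchd10 lie close together on chromosome 10 (GRCm38, GENCODE vM21), on the same strand, with Chchd10 at chr10:75933130-75937747 and Vpreb3 at chr10:75943057-75949657, 5309 bases apart. Gm867, a protein-coding gene of the minus strand at chr10:75937723-75940672, lies between them and overlaps the end of Chchd10. It had no UMI in Vpreb3 B cells. The RefSeq start of Vpreb3 lies 5243 bases inside this GENCODE gene, so the annotations disagree on where Vpreb3 begins, whereas that of Chchd10 is the same in both. Their promoter windows, 250 bases before to 50 bases after the RefSeq start on GRCm38.p6, are shown because the transcripts were found in the same cells. Capitals mark the octamer ATGCAAAT or its reverse complement ATTTGCAT, the site known to bind the Oct factors of B cells. The Vpreb3 window is chr10:75948050-75948349 and the Chchd10 window chr10:75932880-75933179, both on the plus strand.
Vpreb3: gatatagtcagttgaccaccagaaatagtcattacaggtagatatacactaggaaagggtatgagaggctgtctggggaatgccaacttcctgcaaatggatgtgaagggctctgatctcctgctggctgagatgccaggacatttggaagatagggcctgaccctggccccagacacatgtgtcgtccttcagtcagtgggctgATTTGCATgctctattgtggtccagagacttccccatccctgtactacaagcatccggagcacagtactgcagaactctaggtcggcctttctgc
Chchd10: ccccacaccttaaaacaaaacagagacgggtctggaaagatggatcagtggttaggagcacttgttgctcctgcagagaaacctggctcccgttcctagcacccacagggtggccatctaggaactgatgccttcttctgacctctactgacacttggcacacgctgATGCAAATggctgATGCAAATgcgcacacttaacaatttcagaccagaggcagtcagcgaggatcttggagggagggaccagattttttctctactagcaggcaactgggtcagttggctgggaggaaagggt
The Vpreb3 window held 1 octamer, on the minus strand 45 bases before the start, and the Chchd10 window held 2 on the plus strand, 83 and 70 bases before it. Of all 32851 windows in the RefSeq set 1.74% held an octamer on either strand. The windows of Icosl and Fcer2a held none, nor did those of the genes that were highest in Vpreb3 B cells, so that 2 of the 12 genes with a window had a match among the 15 looked up. Searched in the same way, the E-box CAGCTG, a site of E proteins, was in 16.3% of all windows and matched Fcer2a, P2ry10, Lamb3 and Cd55, and the related CACCTG, in 20.2%, matched Icosl, Fcer2a, Ltb, Lamb3 and Arhgef18. A match is a description of the letters and not of binding.

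Vpreb3 itself, the basis of the rule, was seen in 1 UMI in 111 of the 161 cells, in 2 UMIs in 30, in 3 in 13, and in 4 to 7 in the other 7 cells. Most cells therefore stand on the threshold, next to the 1232 B cells that met the same exclusions and had no Vpreb3 UMI. Free RNA in droplets can give single UMIs to cells that do not make a transcript, and it was not removed. A cell that makes Vpreb3 can also be left without a UMI of it. B cells without Vpreb3 are therefore cells in which it was not detected, and may include cells that make it. Vpreb3 was found in 0 of 426 T cells (median 2684 UMIs per cell), a limit of 0.704% of cells with a UMI at 3 counts, and in 0 of 1897 macrophages (median 5102 UMIs), a limit of 0.158%. On the other limits, 13 Vpreb3 B cells had the minimum of 4 Cd79a and Cd79b UMIs and 8 cells just missed it with 3, while 3 had 1 UMI of Egr3 or Egr4 and 2 cells just missed with 2. A single B-1 gene UMI kept 22 cells out.

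The 6 libraries held between 5 and 51 Vpreb3 B cells. Library 4 had the highest share of its B cells, 51 of 475 or 10.7% (8.10–13.9%), followed by library 1 with 45 of 639 or 7.04% (5.18–9.31%). Libraries 2, 5 and 3 lay at 4.62%, 4.20% and 3.94%, with intervals that overlap each other, and library 6 had the lowest share, 5 of 277 or 1.81% (0.589–4.16%). Library 6 was also the shallowest, with a median of 2783 UMIs over its kept cells against 4069 to 5794 in the other libraries, and the part of depth in its share was not tested. Without library 4 the share over the remaining libraries was 4.76%. No Vpreb3 B cell shared its barcode sequence with another library, whereas 28 barcode sequences occurred in more than 1 library.

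**Figure D1:**
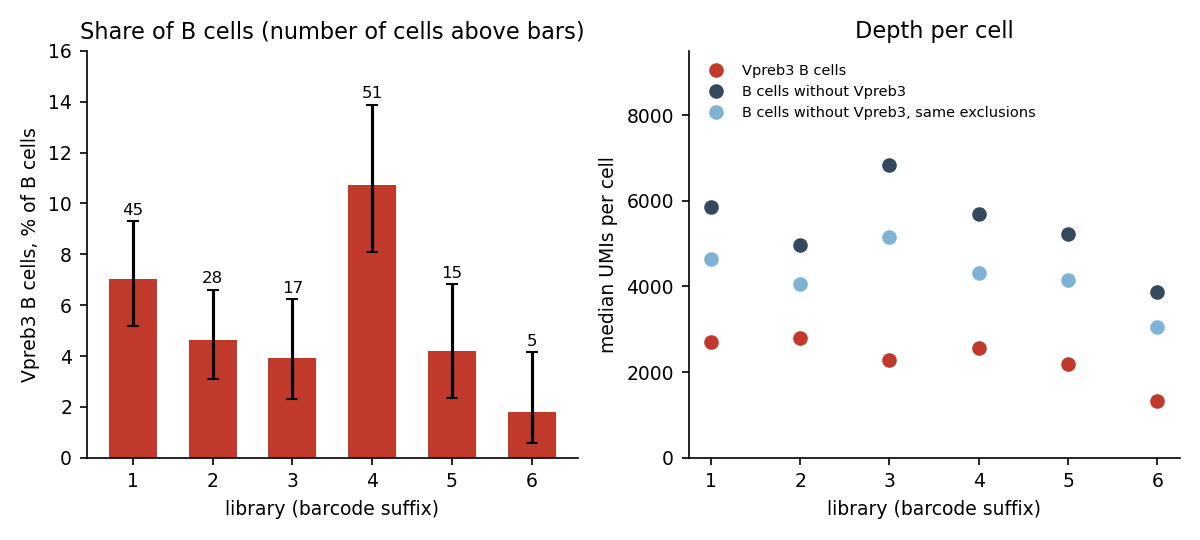
Left, Vpreb3 B cells as a percentage of B cells in each of the 6 libraries (bars, with 95% exact binomial intervals and the number of cells above). Right, median UMIs per cell of Vpreb3 B cells and of both comparison sets by library. The share ran from 1.81% to 10.7%, and Vpreb3 B cells had the lowest median depth in every library.

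Vpreb3 B cells held few UMIs. Their median was 2559 UMIs (quartiles 2096 and 3439) and 1063 genes per cell, against 5426 UMIs and 1712.5 genes in the 2586 B cells without Vpreb3 and 4273.5 UMIs and 1448 genes in the 1232 of these that met the same exclusions. By library the median depth was between 1319 and 2806 UMIs in Vpreb3 B cells and between 3881 and 6837 UMIs in B cells without Vpreb3, with no overlap. The 39 cells with Vpreb3 that the exclusions removed were deep, with a median of 8765 UMIs. Since depth differed this much, each cell was thinned at random to 1500 UMIs before levels were compared, which left 151 Vpreb3 B cells, 2559 B cells without Vpreb3 and 1207 of these with the same exclusions. At that depth the median number of genes was 719, 710 and 702. Mitochondrial UMIs made up 3.27%, 3.22% and 3.39%, and ribosomal protein UMIs 33.8%, 33.4% and 34.2%.

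Of the heavy chain constant regions, that of IgD was the one called higher in these cells. Ighd, which encodes the IgD heavy chain, was at 417, 457, 605, 503, 606 and 803 CPM (its UMIs per 1000000 UMIs of the cells) in the Vpreb3 B cells of libraries 1 to 6. In B cells without Vpreb3 it ran from 71.9 to 132 CPM by library, and in those with the same exclusions from 125 to 213 CPM. Every library of Vpreb3 B cells was thus above every library of both comparison sets. Over all libraries the thinned ratio to B cells without Vpreb3, taken within libraries, was 2.05 on the log2 scale (95% counting interval 1.78–2.31, 143 and 565 UMIs), and 1.48 (1.20–1.76) against those with the same exclusions. The IgM heavy chain, by contrast, was at similar levels, with Ighm at 1587 to 3413 CPM by library in Vpreb3 B cells and 1587 to 2236 CPM in B cells without Vpreb3. The share of Ighd among Ighd and Ighm UMIs was 20.8%, 19.8%, 22.9%, 20.7%, 22.4% and 19.0% in libraries 1 to 6. In B cells without Vpreb3 it was 4.34% to 6.66% by library, and with the same exclusions 6.31% to 8.69%. The libraries do not overlap, and over all libraries the shares were 21.0% (18.8–23.3%), 5.30% (5.05–5.55%) and 7.69% (7.24–8.17%). In the 39 left-out cells with Vpreb3 the share was 10.7% (8.38–13.4%). Of the switched isotypes, Ighg3 was at 73.4 CPM (52.4–99.9) in Vpreb3 B cells against 16.9 CPM in B cells without Vpreb3, with a thinned log2 ratio of 1.75 (0.96–2.55). It was higher in 3 libraries and lower in 3 and so was not called, and its 40 UMIs came from 7 cells. Ighg2b was at 47.7 CPM (31.2–69.9) against 11.1 CPM, also from 7 cells, and had too few thinned UMIs to be compared. Ighg1 had no UMI in Vpreb3 B cells and Igha 4.

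Fcer2a (chr8:3681737-3694175, minus strand) was at 44.3, 57.1, 46.6, 58.5, 82.6 and 201 CPM in the Vpreb3 B cells of libraries 1 to 6, and at 8.67 to 20.2 CPM by library in B cells without Vpreb3. The value of library 6 rests on 5 cells. The thinned log2 ratio was 2.47 (1.69–3.24, 19 and 56 UMIs), and Fcer2a was seen in 25 of 161 Vpreb3 B cells, 15.5%. Of the 144 B cells with a Fcer2a UMI these were 17.4%, and 116 of the 144 had no Vpreb3 UMI. Neither T cells nor macrophages had a Fcer2a UMI. Icosl (chr10:78069302-78083913, plus strand) was at 69.5, 76.2, 109, 87.7 and 82.6 CPM in libraries 1 to 5 and at 0 in the 5 cells of library 6, against 2.51 to 8.89 CPM in B cells without Vpreb3. Its thinned log2 ratio was 3.28 (2.54–4.02, 24 and 37 UMIs). Icosl was seen in 20.5% of Vpreb3 B cells, 0.704% of T cells and 2.37% of macrophages.

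Chchd10 was at 341, 171, 31.0, 263, 138 and 201 CPM in libraries 1 to 6 of Vpreb3 B cells and at 5.66 to 32.0 CPM in B cells without Vpreb3. Library 3 was the lowest in both sets, and its Vpreb3 B cells lay within the range of the other libraries' B cells without Vpreb3 but above the 5.66 CPM of its own. The thinned log2 ratio was 2.81 (2.36–3.26, 62 and 122 UMIs), and 2.23 (1.75–2.71) with the same exclusions. Chchd10 was seen in 73 of 161 Vpreb3 B cells, 45.3%, in 12.8% of B cells with the same exclusions, in 4.93% of T cells and in 2.58% of macrophages. Of the other genes within 100000 bases of Vpreb3, only Mif and Smarcb1 had enough UMIs to be compared, and their log2 ratios were -0.49 and -0.23. Of the CHCHD and MICOS list, the relatives of Chchd10 and its partners in the inner membrane, 8 genes were compared. Chchd2, its nearest relative, had a log2 ratio of -0.01 (-0.26 to 0.24), and Chchd4, the import receptor of this protein family, was lower at -2.20 (-3.85 to -0.55, 3 and 249 UMIs).

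Cd55, a regulator of complement that was not part of the rule, was at 177, 143, 171, 129, 165 and 201 CPM in libraries 1 to 6 of Vpreb3 B cells. In B cells without Vpreb3 it was at 34.8 to 64.0 CPM by library, and the libraries do not overlap. The thinned log2 ratio was 1.49 (1.00–1.98), and 1.23 (0.71–1.74) with the same exclusions.

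**Figure D2:**
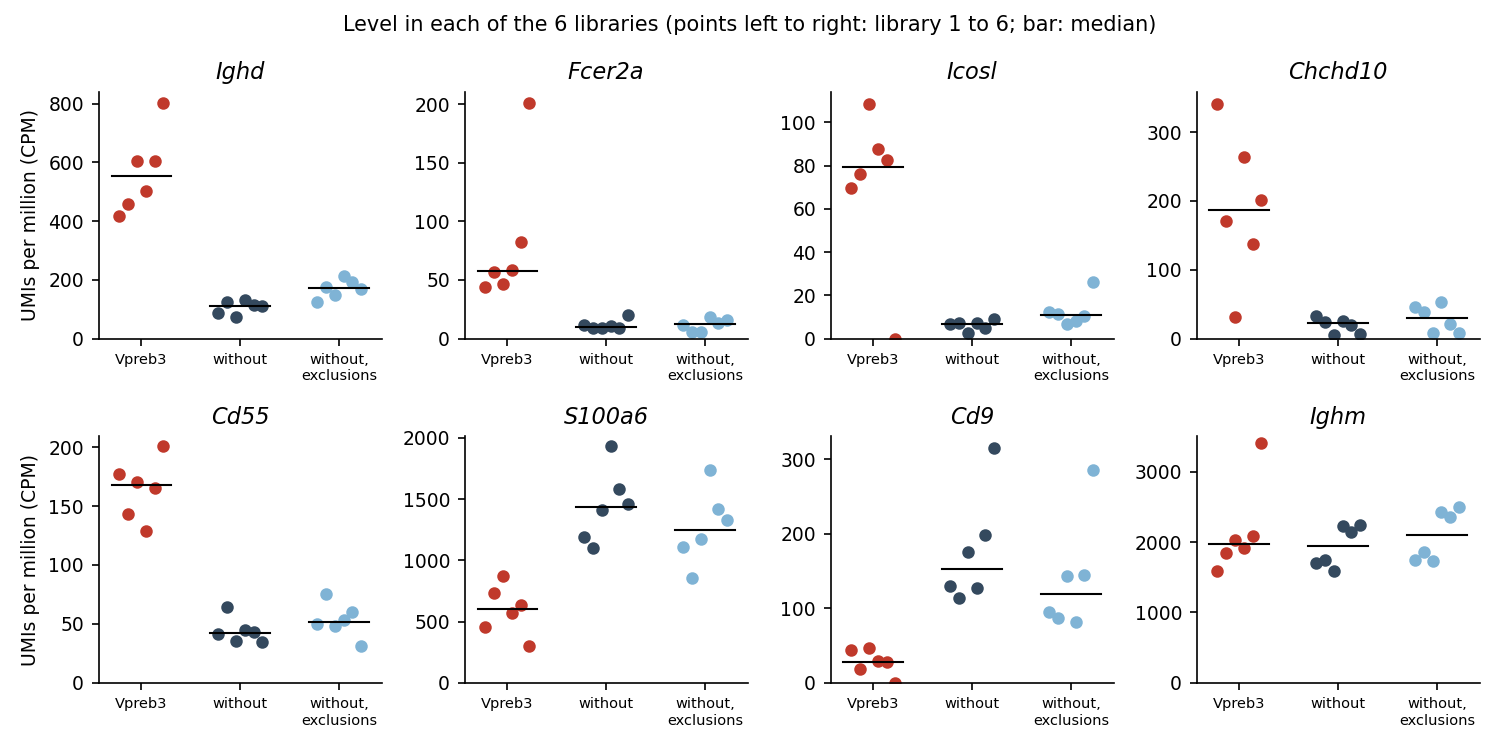
CPM of 8 genes in each of the 6 libraries for Vpreb3 B cells (red), B cells without Vpreb3 (dark) and those with the same exclusions (light blue); points run from library 1 to 6 and bars are medians. Ighd and Cd55 lie apart in every library, Icosl is at 0 in the 5 cells of library 6, and Ighm overlaps.

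The markers occurred together in single cells only in part. At least 1 of Ighd, Fcer2a, Icosl and Chchd10 was seen in 145 of 161 Vpreb3 B cells, 90.1%, and all 4 in 2 cells. In B cells without Vpreb3, which were deeper, 44.4% had at least 1. Thinned to 1500 UMIs the shares were 76.2% of Vpreb3 B cells, 20.8% of B cells without Vpreb3 and 27.7% of those with the same exclusions. The 73 Vpreb3 B cells with Chchd10 and the 88 without it had similar levels of Ighd, at 432 CPM (357–517) and 555 CPM (470–650). The 25 with Fcer2a had more Ighd, 815 CPM (626–1043) against 440 CPM (382–505) in the 136 without, and less of S100a6, a calcium-binding protein abundant in B-1 cells, 155 CPM (80.2–271) against 676 CPM (603–754). Among B cells with the same exclusions and no Vpreb3, the 158 with Chchd10 had Ighd at 238 CPM (205–275), below Vpreb3 B cells without Chchd10. The 49 of these B cells with Fcer2a, at a median depth of 2598 UMIs, had Ighd at 439 CPM (349–546) and S100a6 at 499 CPM (402–612). Their Ighd was close to the 440 CPM of Vpreb3 B cells without Fcer2a, so such a level was not particular to Vpreb3 B cells.

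Levels did not all follow the number of Vpreb3 UMIs. In cells with 0, 1, 2 and 3 or more Vpreb3 UMIs, Chchd10 was at 33.6, 197, 273 and 360 CPM. Icosl was at 11.2, 62.2, 131 and 120 CPM. Ighd was at 168, 510, 535 and 360 CPM, and Ltb, a lymphotoxin, at 110, 275, 333 and 214 CPM. From 1 UMI upward the intervals overlap for Icosl, Ighd and Ltb, and for Chchd10 those of 1 and 3 or more UMIs overlap between 238 and 246 CPM. S100a6 was at 1215, 583, 356 and 975 CPM, so the 20 cells with 3 or more UMIs were nearer to the B cells without Vpreb3. Cd9, a tetraspanin of B-1 and marginal zone B cells, fell from 117 CPM to 41.5, 11.9 and 13.3 CPM. Its values at 2 and at 3 or more Vpreb3 UMIs rest on 1 UMI each, and their intervals overlap that at 1. These cells were not thinned, and the median depth was 4273.5, 2544, 2391.5 and 2929.5 UMIs in the same order. The step between 0 and 1 Vpreb3 UMI is thus also a step in depth, whose part was not tested.

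**Figure D3:**
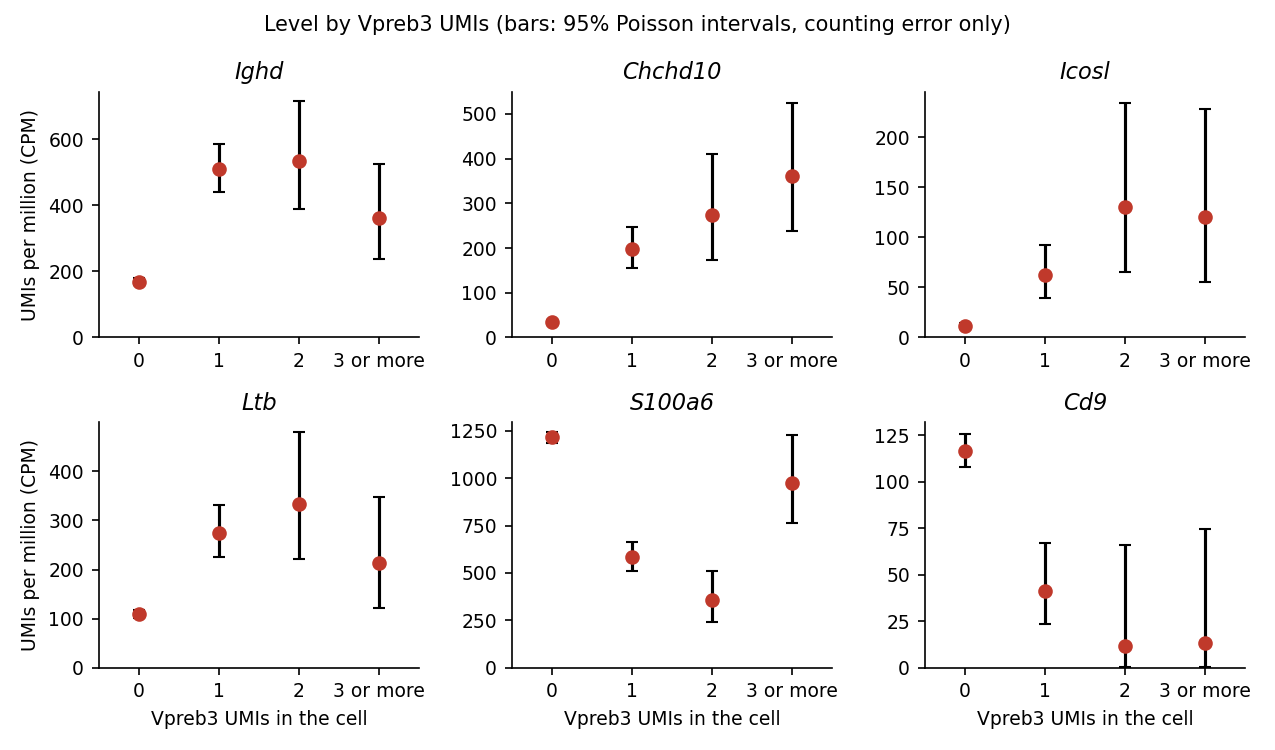
CPM of 6 genes in B cells with 0, 1, 2 and 3 or more Vpreb3 UMIs (1232, 111, 30 and 20 cells, all with the same exclusions), with 95% Poisson intervals. Ighd, Icosl and Ltb step up between 0 and 1 UMI, Cd9 steps down, and S100a6 returns to 975 CPM in the last group. Cells were not thinned, and the median depth goes from 4273.5 to 2544 UMIs between 0 and 1 Vpreb3 UMI.

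Across all genes, 6270 had at least 60 thinned UMIs and were compared with B cells without Vpreb3. Called higher, with a ratio of at least 2-fold and the same direction in all 6 libraries, were 33 genes (0.526%), and called lower were 383 (6.11%). The rule is uneven, because library 6 kept 2 Vpreb3 B cells after thinning, in which most genes have no UMI and so count as lower, and 83 of the 383 genes had no UMI in any thinned Vpreb3 B cell. Such genes have a ratio of 0 and were called on it. At a floor of 3 counts 64 of the 83 do not reach 2-fold, which leaves 319 lower calls. With the direction asked only in libraries 1 to 5, each with at least 10 thinned cells, 116 genes (1.85%) were higher and 422 (6.73%) lower. Against B cells with the same exclusions, which share their Vpreb3 B cells with the first comparison, 8 of 3894 genes (0.205%) were higher and 116 (2.98%) lower, or 44 (1.13%) and 136 (3.49%) in libraries 1 to 5. The calls of low genes are unstable, since a second random thinning made 396 calls of which 185 were among the 416, and 139 of which 52 were among the 124 in the second comparison. The median log2 ratio of all genes was 0.00 and 0.02.

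Among the 12 highest calls were Fcer2a and Ighd, then the lysophospholipid receptor P2ry10 (1.59, 1.04–2.14), Ltb (1.57, 1.22–1.92), the laminin chain Lamb3 (1.55), the methyltransferase Mettl2 (1.54), the sorting receptor Sorl1 (1.52), Cd55 (1.49), Arhgef18 (1.38), Pogz (1.38) and the transcription factor Bcl11a (1.37, 0.97–1.77), all as thinned log2 ratios to B cells without Vpreb3. Of these, Pogz, Arhgef18, Mettl2 and Lamb3 rest on 9 to 15 UMIs. With the same exclusions the 6 highest included Ighd, Sorl1 (1.23), Cd55 (1.23), Lamb3 (1.21) and Filip1l (1.07). Higher in libraries 1 to 5 but not in the 2 cells of library 6 were Chchd10, Icosl, the ubiquitin ligase Neurl3 (2.19), the orphan receptor Gpr171 (2.04), the signal transducer Stat4 (1.92) and Id3 (1.84), an inhibitor of E proteins.

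At the low end the values rest on very few UMIs. The chemokine Ccl4 had 0 thinned UMIs in Vpreb3 B cells and 1558 in B cells without Vpreb3, a log2 ratio of at most -4.72 at the floor of 3 counts. Tubb6, Csf1, Dot1l, Il2ra, Lilr4b, Rab31 and Il10 had 1 UMI each, with log2 ratios of -4.59 to -3.52 and intervals more than 5 log2 units wide. Nr4a1, an orphan nuclear receptor induced through the B cell receptor, had 4 UMIs against 1177 (-3.66, -5.06 to -2.27), and Nr4a3, of the same family, 3 against 734 (-3.41). Fgl2, a secreted fibrinogen-like protein, had 4 against 1055 (-3.66) and Lgals3, which encodes galectin-3, 3 against 663 (-3.61). Csf1, the growth factor of macrophages, had 27 UMIs in the unthinned Vpreb3 B cells, 15 of them in library 3, and its log2 ratio was -1.14 without thinning. With the same exclusions the 6 lowest calls were Csf1, Tubb6, Dot1l, Rab31, Cacna1e and Il2ra, each with 1 UMI. The first comparison set holds cells with Egr3 and Egr4, which the rule bars from Vpreb3 B cells. With the same exclusions Nr4a1 was at -2.17 (-3.57 to -0.78), Nr4a3 at -2.51 (-4.20 to -0.81) and Ccl4 at most -2.42, against 156 UMIs. Lilr4b (-2.80, -5.81 to 0.21) was then not called, and Il10, with 1 and 41 UMIs, was too low to be compared.

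Of the follicular list, 15 of 16 genes were compared and 4 were called higher, among them Fcer2a, Ighd and Cd55, against 0.526% of all genes, with none lower. Icosl was also called in libraries 1 to 5. Fcer2a, Ighd and Icosl are markers put forward with the rule, so these calls are no independent evidence. The list's median log2 ratio was 0.44, against 0.00 over all genes. The chemokine receptor Ccr7 was at 0.81 (0.29–1.33) and the chromatin organizer Satb1 at 0.83 (0.41–1.25), neither called. The egress receptor S1pr1 (0.16) and its activator Klf2 (0.08) were close to 0, and Cxcr5, which guides B cells to follicles, was at -0.54 (-1.32 to 0.24). Cr2, the complement receptor CD21, had 5 and 22 thinned UMIs and was too low to count. The marginal zone list had 5 genes compared, a median of -0.35, and 1 gene called lower, against 6.11% of all genes. That gene was the sphingosine receptor S1pr3, with 0 UMIs against 118. At the floor of 3 counts its log2 ratio is at most -0.86, short of 2-fold.

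The B-1 list had 16 of 20 genes compared, 10 called lower and none higher, against 6.11% and 0.526% of all genes, with a median log2 ratio of -1.51. The exclusion of Bhlhe41, Zbtb32 and Cd5 acts on this list, but with the same exclusions 7 of 12 genes were still lower, against 2.98% of all genes, and the median was -1.47. S100a6 was at 301 to 869 CPM by library in Vpreb3 B cells and 1098 to 1932 CPM in B cells without Vpreb3, with a thinned log2 ratio of -1.71 (-2.001 to -1.42). Vim, the intermediate filament protein vimentin, was at -1.60 (-2.07 to -1.14), Plac8 at -1.31 (-1.58 to -1.04), Ahnak, a scaffold protein, at -2.44 (-3.88 to -1.01) and Cd9 at -2.14 (-3.32 to -0.97). Il5ra, the interleukin-5 receptor chain, was at 0.29 (-0.95 to 1.52). The order of B cells by Ighd ran from 494 CPM (436–556) in Vpreb3 B cells through 168 CPM (158–179) with the same exclusions and 71.0 CPM (65.2–77.1) in the 1075 with a B-1 gene to 56.2 CPM (47.2–66.4) in the 279 with Egr3 and Egr4, the last pair having intervals that overlap slightly. These cells were not thinned, and their median depth rose along the same order, at 2559, 4273.5, 6435 and 8048 UMIs. The part of depth in this order was not tested.

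Of 20 immediate-early and activation genes compared, 7 were lower and none higher, against 6.11% and 0.526% of all genes, with a median log2 ratio of -0.998. Egr1 (-2.88), Egr2 (-2.83), Nr4a1, Nr4a3, Ccl3, Ccl4 and the activation marker Cd83 (-1.03) made up the 7. The limit on Egr3 and Egr4 acts here, and with the same exclusions 3 of 18 were lower, against 2.98% of all genes, with a median of -0.67. Cd69, the early activation antigen, was at 0.22 (-0.58 to 1.02) and Nfkbia, the inhibitor of NF-kB, at 0.48 (0.05–0.92), so the list was not uniform.

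The transcription factor list had 25 genes compared, with Bcl11a, Mef2c (1.27, 0.99–1.54), Ets1 (1.17, 0.83–1.51) and Spib (1.03, 0.49–1.57) called higher, against 0.526% of all genes. Irf4, needed for plasma cells and induced on activation, was lower at -2.03 (-2.89 to -1.18), and Xbp1, of the secretory programme, at -1.41, and with 25 genes compared these lower calls are near the 6.11% of all genes. Without thinning, 24 of the 59 Irf4 UMIs of Vpreb3 B cells came from library 3. Irf4 was there at 372 CPM, against 341 CPM in B cells without Vpreb3 and 203 CPM with the same exclusions. The B lineage factors Ebf1 (0.77, 0.57–0.96) and Pax5 (0.65, 0.16–1.13) were below 2-fold. With the same exclusions none of 24 was called higher, and Irf4 alone was lower (-1.36). The octamer factors and their coactivator were not called, with Pou2f2 at 0.23 and Pou2af1 at 0.32.

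Components of the B cell receptor pathway had 21 genes compared, none called, and a median log2 ratio of 0.32. Highest were the Ras activator Rasgrp3 (1.00, 0.36–1.64), higher in libraries 1 to 5, and the adaptor Bank1 (0.81, 0.55–1.08), and lowest was the PI3K adaptor Pik3ap1 (-0.97). CD20 (Ms4a1) was at 0.68 (0.42–0.94) and the inhibitory Cd22 at 0.25 (-0.21 to 0.71). Genes of MHC class II presentation had 12 compared, none called, and a median of 0.56, from -0.12 for H2-Eb1 to 1.36 for H2-Oa, the chain of the peptide editor H2-O, with its partner H2-Ob at 0.90 (0.59–1.21). Of the homing list, 14 compared, the hyaluronan receptor Cd44 was lower (-3.05, -4.48 to -1.62). Of 13 costimulation and survival genes, Cd274, which encodes PD-L1, and the survival genes Pim1 and Bcl2a1b were lower, and of 15 cytokine, Fc and innate receptor genes Fcer2a was higher and Cd180 (-1.72) and Il10 lower. Of 5 plasma cell genes 1 was lower, Xbp1, and of 3 cell cycle genes none was called. Beside these counts, 6.11% of all genes were called lower and 0.526% higher, so single lower calls in lists this short carry little weight. With the same exclusions 1 of 13 homing genes, 1 of 12 costimulation and survival genes and 0 of 4 plasma cell genes were lower. Of 9 cytokine, Fc and innate receptor genes then compared, 1 was lower, Cd180, against 2.98% of all genes.

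**Figure D4:**
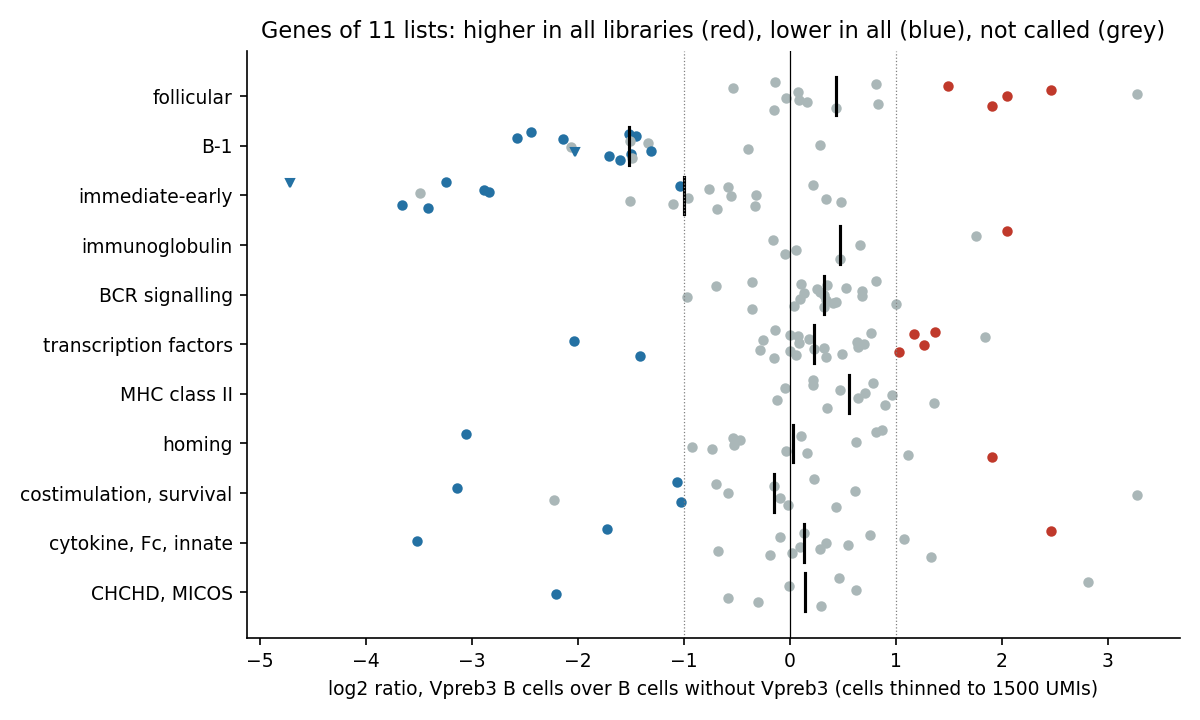
Thinned log2 ratio of Vpreb3 B cells over B cells without Vpreb3 for the compared genes of 11 lists; red and blue points are at least 2-fold higher or lower with the same direction in all 6 libraries, triangles are bounds for genes with 0 UMIs, and black bars are medians. The B-1 and immediate-early lists lie to the left (medians -1.51 and -0.998), and the follicular calls lie to the right.

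Most genes of the precursor list, which leaves out Vpreb3, were at or near 0 in Vpreb3 B cells, apart from Cd24a and Bcl11a. Of the surrogate light chain genes Vpreb1, Vpreb2 and Igll1, the recombination genes Rag1 and Rag2 and the polymerase gene Dntt, no UMI was found, which with 161 cells allows a share of up to 1.86% of cells with a UMI for each gene. B cells without Vpreb3 also had 0 UMIs of Vpreb2, Igll1, Rag1, Rag2 and Dntt, and 7 of Vpreb1, so this absence does not set Vpreb3 B cells apart. At this depth a low transcript can be missed in cells that make it. Cd93, an antigen of transitional B cells, was at 3.67 CPM (0.44–13.3, from 2 UMIs) in Vpreb3 B cells and at 0.37 CPM (0.14–0.81, from 6 UMIs) in B cells without Vpreb3, too few to be compared. Of the precursor list only Cd24a (0.47, 0.16–0.79) and Bcl11a were compared. Bcl11a was called higher, though not with the same exclusions. The list summed to 561 CPM in Vpreb3 B cells (397 to 689 CPM by library) and 314 CPM in B cells without Vpreb3 (197 to 412 CPM). Cd24a at 334 CPM and Bcl11a at 215 CPM made up most of the 561 CPM.

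Other cell types left few transcripts. Macrophage markers, of which 9 of 15 had a UMI, summed to 532 CPM in Vpreb3 B cells (220 to 667 CPM by library), 382 CPM in B cells without Vpreb3 (160 to 569 CPM) and 40202 CPM in macrophages, with C1qa, C1qc, Mertk, Timd4 and Gata6 among those at 0 in Vpreb3 B cells. T and NK cell markers, 3 of 14 with a UMI, summed to 38.5 CPM against 52.4 CPM and 2963 CPM in T cells. Haemoglobin genes had no UMI in Vpreb3 B cells. Scrublet called 0 of 161 Vpreb3 B cells a doublet, against 63 of 7665 kept cells (0.822%) and 6 of 2586 B cells without Vpreb3 (0.232%). With 161 cells these shares cannot be told apart. The rule itself bars Csf1r, Adgre1, Cd3d and Cd3e, so low macrophage and T cell markers are in part set by the selection.

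To compare cells of like depth, both sets were also limited to cells of 1500 to 3500 UMIs, an alternative chosen after seeing the data, which left 111 Vpreb3 B cells (median 2290 UMIs) and 554 B cells without Vpreb3 (median 2687.5 UMIs). The ratios of the 12 highest calls shrank apart from that of Mettl2, which was 2.21 (1.01–3.40). The thinned log2 ratio was 1.05 (0.75–1.36) for Ighd, 0.99 (0.11–1.87) for Fcer2a, 1.95 (1.11–2.79) for Icosl and 1.62 (1.05–2.19) for Chchd10. Ighd and Fcer2a were still higher in 6 of 6 libraries and Chchd10 and Icosl in 5. With the same exclusions as well, Ighd was at 0.83 (0.52–1.14), below 2-fold, and Fcer2a at 0.69 (-0.19 to 1.57), higher in 5 of 6 libraries with an interval that reached 0. Icosl was then at 1.94 (1.05–2.84) and Chchd10 at 1.45 (0.87–2.03). Intervals reached 0 for Cd55 (0.54, -0.04 to 1.12), Sorl1 (0.52, -0.11 to 1.15), Arhgef18 and Pogz, and the calls fell from 33 to 2 higher and from 383 to 43 lower among 2047 genes. The share of Ighd among Ighd and Ighm UMIs also moved with depth, to 28.9% (25.4–32.5%) against 11.3% (10.4–12.3%), with libraries at 22.4% to 33.3% and 4.34% to 14.0%. Genes of the B-1 list did not shrink in the same way, with S100a6 at -1.90 (-2.38 to -1.43) and Plac8 at -1.93 (-2.32 to -1.53), while Ighm went to -0.52 (-0.70 to -0.34). Cd9 was at -1.45 with an interval that reached 0.10. Of the 12 lowest calls, intervals reached 0 for Lgals3 (-1.17, -2.98 to 0.64), Nr4a3 (-2.38, -5.44 to 0.67) and Lilr4b (-1.66, -4.90 to 1.58). Those of Fgl2 (-4.35, -7.18 to -1.52) and Dot1l (-2.88, -5.57 to -0.18) stayed below 0. The remaining lowest calls had 0 UMIs in these Vpreb3 B cells. Ccl4 then had 26 UMIs in B cells without Vpreb3 and was lower in 2 of 6 libraries. Of the list genes, intervals also reached 0 for Bank1 (0.12, -0.22 to 0.46), Ms4a1 (0.20, -0.12 to 0.52) and H2-Ob (0.32, -0.05 to 0.69). The same held for H2-Oa (0.57, -0.08 to 1.21), Spib (0.50, -0.11 to 1.10), Pax5 (0.37, -0.20 to 0.94) and Cd24a (0.04, -0.37 to 0.44). Those of Ebf1 (0.47, 0.23–0.70), Mef2c (0.61, 0.28–0.94), Ets1 (0.44, 0.04–0.84) and Ccr7 (0.75, 0.07–1.42) stayed above 0.

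**Figure D5:**
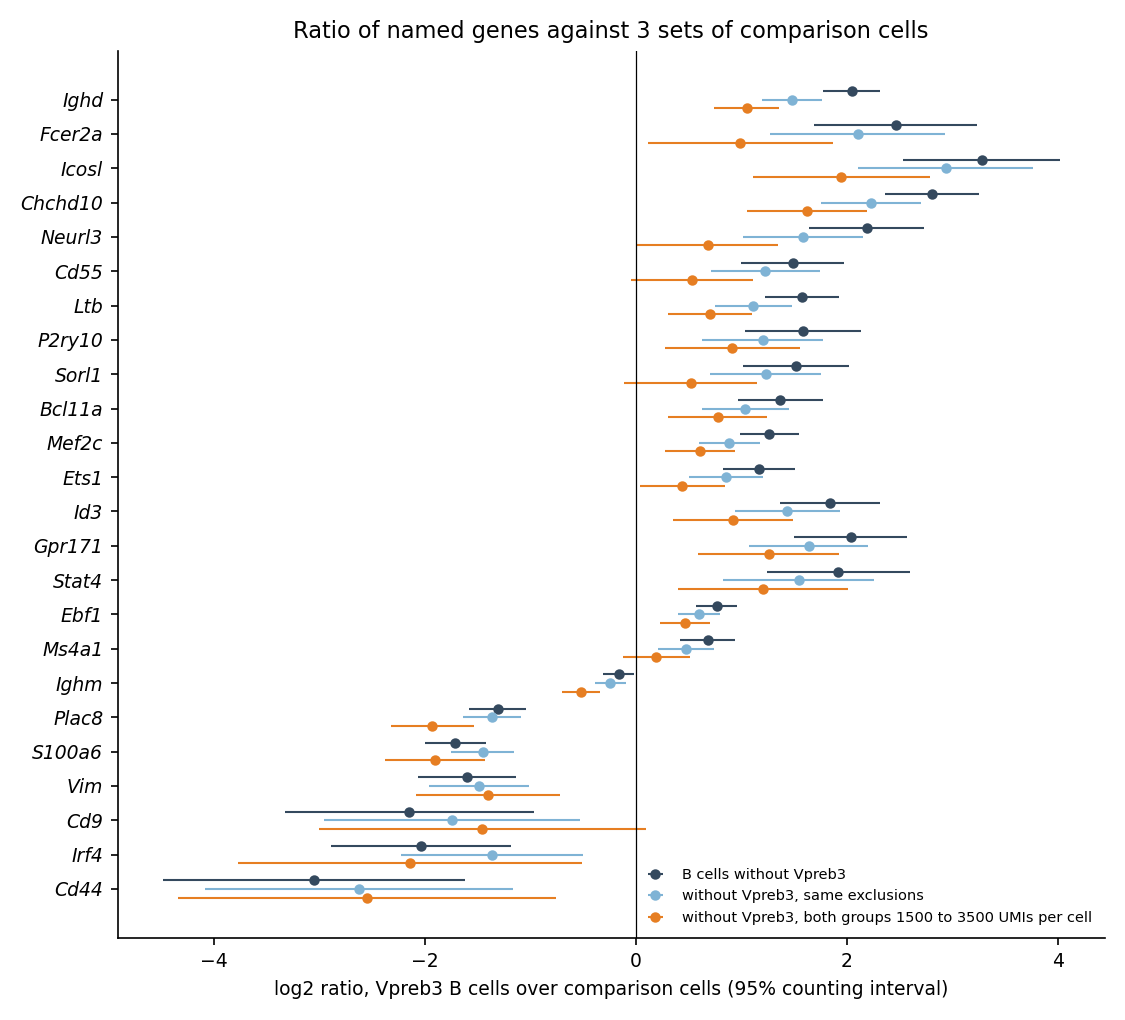
Thinned log2 ratio with 95% counting intervals of 24 genes in Vpreb3 B cells over B cells without Vpreb3 (dark), over those with the same exclusions (light blue) and over B cells without Vpreb3 when both sets have 1500 to 3500 UMIs per cell (orange). Ighd goes from 2.05 to 1.48 and 1.05, and S100a6 stays between -1.90 and -1.45.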

How the data were processed

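Per the labels and the methods, the authors aligned 5′ droplet reads with STAR through Cell Ranger to human and mouse genomes (mm10/GRCm38) and deposited raw UMI counts per mouse gene and cell, 55538 features by 7760 barcodes, joined over 6 libraries with no normalization. The submitters' processing notes name Cell Ranger 2.2 and Seurat 3.0. Libraries held 4234786 to 10287079 UMIs. The members and gene lists were chosen with earlier results of these data known.

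Cells were filtered and selected as given above in Python 3.11.15. Each cell was thinned without replacement to 1500 UMIs, leaving out 10 Vpreb3 B cells and 27 B cells without Vpreb3. Ratios are Mantel-Haenszel rate ratios over the 6 libraries with 95% Greenland-Robins counting intervals (scipy 1.17.1), for genes with at least 60 thinned UMIs over both sets. A gene was called at 2-fold or more with the same direction in all libraries. A gene without UMIs in Vpreb3 B cells has a ratio of 0 and was called on it, and a floor of 3 counts was used only for its printed bound and in medians. CPM are sums over cells with exact Poisson intervals. The ratio and the call rule were tested on simulated counts. Named genes are those that define the lists, the 12 highest and 12 lowest calls, and the 6 and 6 with the same exclusions; Chchd10, Icosl, Neurl3, Gpr171, Stat4 and Id3, along with further list genes, were picked with their values known. Some genes of the lists and calls are not reported here. Scrublet calls of doublets were made in scanpy 1.11.5 at an expected rate of 0.01 and kept. Free RNA was not removed. Alternatives covered the cell and B cell limits, the thinning, the gene minimum, the ratio, doublets and each library. Gene positions are from GENCODE vM21, whose names matched 55341 features. Reads of overlapping genes, such as Chchd10 and antisense Mmp11 (1 UMI in Vpreb3 B cells), may not be told apart.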

Additional observations from a re-analysis of the deposited data

How the results depend on the processing

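The share of Vpreb3 B cells among B cells was 5.78% and moved past its interval under 3 choices of cells: to 3.84% with at least 1000 genes per cell, to 7.40% when every cell was thinned before the rule, and to 1.79% with at least 2 Vpreb3 UMIs. Leaving out each library in turn gave 4.76% to 6.22%, the lowest without library 4. The 416 genes called against B cells without Vpreb3 became 672 with no thinning, 866 and 139 with gene minimums of 20 and 200 thinned UMIs, 945 with members of at least 2 Vpreb3 UMIs, 133 by the median of ratios within libraries, 161 with thinning before the rule and 45 with cells of 1500 to 3500 UMIs, while leaving out a library gave 439 to 504. The 124 genes called with the same exclusions became 193 when thinned to 2500 UMIs, 286 with no thinning, 370 and 27 with the minimums of 20 and 200, 294, 60 and 21 under the same changes of members, ratio and depth window, and 122 to 157 without a library. Calls of higher genes rose from 33 to 110 and from 8 to 36 without library 6, so the counts of higher genes depend on that library. The direction rule for libraries 1 to 5, the depth window and the floor in calls were chosen after seeing the data. Among the named genes no called ratio changed sign; the ratio stayed within its interval for 53 of 59 genes with no thinning, 51 of 59 with the same exclusions, 39 of 54 with thinning before the rule, 24 of 52 in the depth window and 343 of 345 times when a library was left out. Apoe, which was not called, went from -0.30 to 0.35 with no thinning. Depth limits what can be seen: a gene at the minimum of 60 UMIs would give 3.34 UMIs in thinned Vpreb3 B cells at equal levels. Asking genes without UMIs to reach 2-fold at the floor of 3 counts left 352 of the 416 calls and all 124. No paired analysis was possible because each condition has 1 library whose number is not matched to it; the ratios between sets of cells are themselves taken within libraries.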

Other observations

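The antigen receptor genes of Vpreb3 B cells were read after their values were seen, and are given as values. After thinning, Ighv11-2 and Ighv12-3, V genes of the phosphatidylcholine-binding B-1 repertoire, were each in 0 of 151 Vpreb3 B cells, which allows up to 1.99% of cells with a UMI, against 49 (1.91%) and 25 (0.977%) of 2559 B cells without Vpreb3, so a difference was not detectable at this number of cells. Igkv19-93 was in 9 of 151 Vpreb3 B cells, 5.96% (2.76–11.01%), against 1.37% (0.954–1.90%) of B cells without Vpreb3 and 1.99% (1.28–2.94%) of those with the same exclusions. Vpreb3 B cells used many V genes, 46 of Ighv and 61 of Igkv, and the most frequent were in 6 cells for Ighv (Ighv7-3) and 13 for Igkv (Igkv1-117). An Igkv UMI was in 86.8% of thinned Vpreb3 B cells and 61.5% of B cells without Vpreb3, an Ighv UMI in 49.7% and 32.0%, and an Iglv UMI in 15.2% and 22.9%. Igkc made up 45.7% of light chain constant UMIs in Vpreb3 B cells and 39.9% in B cells without Vpreb3. These shares of UMIs do not follow the shares of cells with an Igkv or Iglv UMI, and are not read as light chain use. V genes have near-identical copies, among which reads can be split. The 39 Vpreb3 B cells with a B-1 gene or with Egr3 and Egr4 had Chchd10 at 53.6 CPM (31.8–84.7) and Icosl at 8.93 CPM (1.84–26.1), below the 231 and 80.7 CPM of the 161.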
